A study of Caenorhabditis elegans with 7 samples.

Results

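The FLP and NLP genes of C. elegans encode precursor proteins from which short neuropeptides are cut. Genes were taken as members where the platform symbol starts with flp- or nlp- and a probe set, a group of short probes, names that gene alone. The genes nlp-27 to nlp-34, which encode antimicrobial-type peptides of the epidermis, were left out. If more than 1 probe set named a gene, that with the highest mean across the 7 arrays stood for it. This gave 76 genes of the 17118 on the array, 25 flp genes and 51 nlp genes. All arrays held RNA from whole N2 (wild-type) young adults, grown from the egg at 20°C for 3 days. The worms were kept on NGM, the standard nematode agar (4 arrays, titled SL1, SL5, SL9 and SL69), or on NGM to which 13L, a peptide from cocoa protein, was added at 1 µg/mL (3 arrays, SL4, SL8 and SL12). The study describes 4 biological replicates for each condition, but only 3 arrays of 13L were available here. The labels name no difference between the groups other than 13L.

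Neuropeptide precursors are cut by proprotein convertases, trimmed and often amidated inside dense core vesicles, and the peptides are released to act on G protein-coupled receptors, often at a distance from the synapse. FLP precursors give FMRFamide-like peptides, which end in arginine and an amidated phenylalanine. NLP precursors are all the others that are not insulin-like, and they form many unrelated groups. In the worm both families are made mainly by neurons and modulate locomotion, feeding, egg laying and sleep.

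Values are on a log2 scale, where a difference of 1 is a doubling. The 5 yeast control probe sets, for which worms have no target, reached a mean of at most 0.74. Of the flp genes 24 had a mean above this level, and flp-23 did not. Of the nlp genes 34 had a mean above it and 17 did not. The arrays also differed in the summed linear value of 21 sperm markers, which was 94.8 in SL1, 674 in SL69 and 287 in SL4, and between 1530 and 2409 in the other arrays. The fits of the flp and nlp genes were therefore repeated without SL1, SL4 and SL69. No such repeat is given for the other gene lists below, those of processing genes, receptors, insulin-like genes and tissue markers. Array medians lay between 1.01 and 1.06. Markers fixed for the tissues of a whole worm were measured above the yeast controls for 19 of 26 neuron genes, 17 of 17 intestine genes and 20 of 20 oocyte genes.

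The first question was whether neuropeptide transcripts differed between worms on 13L and on NGM. No member passed the adjusted test of limma, which covers all 22548 probe sets (lowest adjusted p among the members = 0.944, the adjusted p of each of the 10 members below). At an unadjusted p under 0.05, 10 members were lower in 13L and none was higher. These were flp-19 and flp-22 among the flp genes and nlp-3, nlp-7, nlp-11, nlp-40, nlp-51, nlp-61, nlp-80 and nlp-81 among the nlp genes. The 10 are 13.2% of the members, where 2.57% of all probe sets were lower at that level and 2.54% were higher. Differences of the members ran from -0.61 (nlp-80) to 0.23 (flp-3), 5 members lay below -0.50 and 34 lay within 0.1 of 0. In RNA of whole worms, a smaller share of a tissue in the total RNA and less RNA of a gene within its cells cannot be told apart.

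Among the flp genes, flp-19 had the lowest difference. It is expressed in sensory neurons for oxygen and carbon dioxide. Its log2 values were 2.51 (SL1), 1.96 (SL5), 2.27 (SL9) and 1.88 (SL69) on NGM and 1.56 (SL4), 1.40 (SL8) and 1.79 (SL12) in 13L. Every 13L array lay below every NGM array, with SL12 nearest to the NGM arrays. The difference was -0.57 with a standard error of 0.17 (limma, unadjusted p = 0.00774), which is 0.673 of the NGM level. A dimmer probe set of flp-19 differed by -0.21 (unadjusted p = 0.258 from limma), and there SL4 and SL12 lay inside the NGM range. The other flp gene at this level, flp-22, had log2 values of 2.68 (SL1), 2.48 (SL5), 2.50 (SL9) and 2.68 (SL69) on NGM and 2.52 (SL4), 2.13 (SL8) and 2.30 (SL12) in 13L. Its groups overlapped, with SL4 inside the NGM range. The difference was -0.27 with a standard error of 0.12 (limma, unadjusted p = 0.0447).

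Among the nlp genes, nlp-80 had the lowest difference. Log2 values were 2.50 (SL1), 2.84 (SL5), 2.90 (SL9) and 3.04 (SL69) on NGM and 2.45 (SL4), 2.09 (SL8) and 2.08 (SL12) in 13L. All 13L arrays were lower, although SL4 lay only just below SL1. The difference was -0.61 with a standard error of 0.15 (limma, unadjusted p = 0.00275), so the mean in 13L was 0.655 of that on NGM. The next was nlp-61, with log2 values of 1.64 (SL1), 1.24 (SL5), 1.37 (SL9) and 1.53 (SL69) on NGM and 1.06 (SL4), 0.62 (SL8) and 0.92 (SL12) in 13L. SL8 was the lowest array and the groups did not overlap. The difference was -0.58 with a standard error of 0.14 (limma, unadjusted p = 0.0022), or 0.67 of the NGM level. The only probe set of nlp-61 is of the _x_at type, and whether it also reads other transcripts was not tested. Both nlp-80 and nlp-61 are known here only by their symbols.

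Peptides of nlp-7 and nlp-3 modulate egg laying and the response to aversive odours, and NLP-3 is released by the egg-laying motor neuron HSN. For nlp-7, log2 values were 2.53 (SL1), 2.62 (SL5), 2.71 (SL9) and 3.18 (SL69) on NGM and 2.38 (SL4), 2.16 (SL8) and 2.21 (SL12) in 13L. The 13L arrays all lay below the NGM arrays, and SL69 stood highest. The difference was -0.51 with a standard error of 0.15 (limma, unadjusted p = 0.00951). For nlp-3 they were 2.38 (SL1), 2.15 (SL5), 2.35 (SL9) and 2.47 (SL69) on NGM and 1.85 (SL4), 1.93 (SL8) and 2.11 (SL12) in 13L. The groups were again separate, with SL12 and SL5 closest to each other. The difference was -0.37 with a standard error of 0.11 (limma, unadjusted p = 0.0079).

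The gene nlp-11 is found in the sleep neuron RIS. Its log2 values were 3.64 (SL1), 3.31 (SL5), 3.76 (SL9) and 3.25 (SL69) on NGM and 2.95 (SL4), 2.86 (SL8) and 3.46 (SL12) in 13L. SL12 lay inside the NGM range, so the groups overlapped. The difference was -0.40 with a standard error of 0.18 (limma, unadjusted p = 0.049995). Values of nlp-51 were 3.62 (SL1), 2.76 (SL5), 3.18 (SL9) and 3.73 (SL69) on NGM and 2.79 (SL4), 2.72 (SL8) and 2.88 (SL12) in 13L. The NGM arrays were far apart, and SL5 lay below SL4 and SL12. The difference was -0.53 with a standard error of 0.21 (limma, unadjusted p = 0.036).

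The peptide of nlp-40 comes from the intestine, where it times the defecation motor program through the receptor AEX-2 on neurons. Log2 values were 5.92 (SL1), 5.96 (SL5), 5.95 (SL9) and 5.91 (SL69) on NGM and 5.86 (SL4), 5.63 (SL8) and 5.68 (SL12) in 13L. The NGM arrays lay close to each other and all 13L arrays lay below them. The difference was small, -0.21 with a standard error of 0.09 (limma, unadjusted p = 0.043). For nlp-81, whose mean was not above the yeast controls, values were 0.88 (SL1), 0.68 (SL5), 0.76 (SL9) and 0.74 (SL69) on NGM and 0.55 (SL4), 0.56 (SL8) and 0.44 (SL12) in 13L. These groups did not overlap either. The difference was -0.24 with a standard error of 0.09 (limma, unadjusted p = 0.0232).

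**Figure D1:**
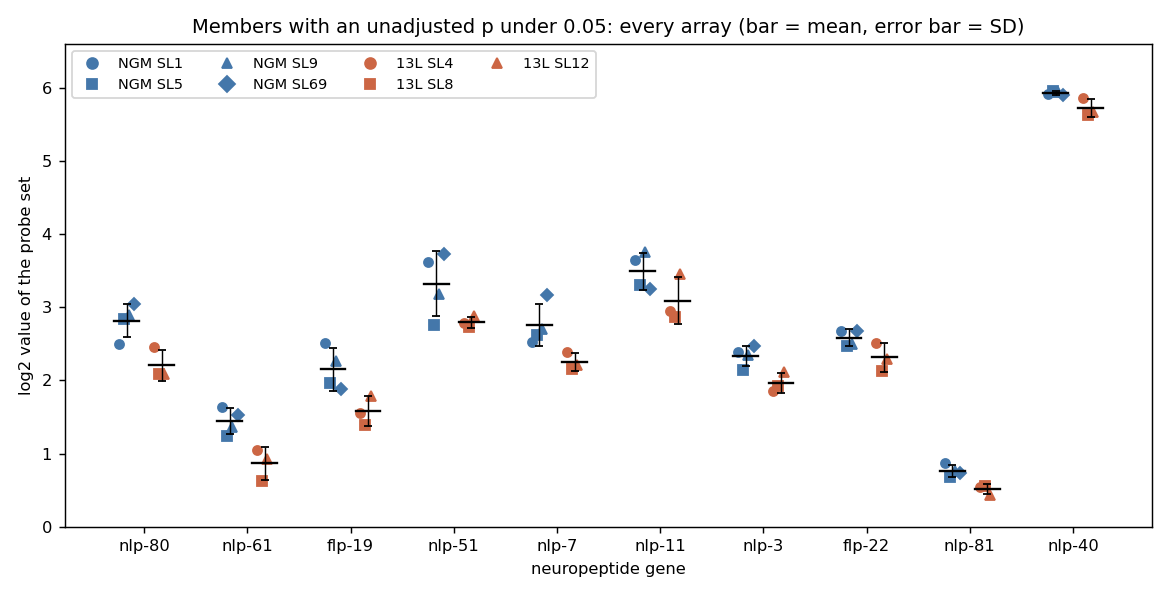
Log2 value of the probe set (y axis) on each array for the 10 members at an unadjusted p under 0.05 (x axis), with the mean and SD of the 4 NGM arrays (blue) and the 3 arrays of 13L (orange). The groups are separate for nlp-80, nlp-61, flp-19, nlp-7, nlp-3, nlp-81 and nlp-40, and overlap for nlp-51, nlp-11 and flp-22.

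Altogether 9 members had every 13L array below every NGM array, these 7 with flp-1 and nlp-50, and none had every 13L array above. This is 11.8% of the members, where 2.77% of all probe sets were separate in that direction and 3.31% in the other. For one such member the exact permutation test over the arrays (two-sided) gives p = 0.0571, the smallest that 3 against 4 arrays allow. The neuropeptide flp-1, released by the interneuron AVK to control locomotion, averaged 3.88 ± 0.15 on NGM (SD, n = 4) against 3.65 ± 0.13 under 13L (SD, n = 3). Its difference was -0.23 with a standard error of 0.11 (limma, unadjusted p = 0.0721). With 1 array left out its p from limma ran from 0.0652 to 0.246, and under the other settings from 0.0403 with array weights to 0.569 without probe sets of the _s_at and _x_at types. Its other probe sets both differed by -0.08, with overlapping groups. For nlp-50 the difference was -0.27 with a standard error of 0.12 (limma, unadjusted p = 0.0582).

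With each array left out in turn, 5 of the 10 members kept an unadjusted p under 0.05 every time. These were flp-19 (p from limma 0.00378 to 0.0382), nlp-3 (0.00385 to 0.0355), nlp-7 (0.0065 to 0.0388), nlp-61 (0.00177 to 0.0108) and nlp-80 (0.000655 to 0.0149). The other 5 lost it with some arrays. For nlp-81 the unadjusted p from limma reached 0.0774 without SL12 and was above 0.05 also without SL1. For flp-22 it reached 0.18 without SL8 (above 0.05 also without SL1, SL69 or SL12), and for nlp-11 0.186 without SL8 (also without SL1, SL9 or SL4). For nlp-51 it reached 0.098 without SL8 (also without SL1, SL69, SL4 or SL12). For nlp-40, 0.144 was reached without SL8, and only leaving out SL4 kept it under 0.05. Without SL1, SL4 and SL69, the arrays with low sperm markers, flp-19 differed by -0.52, nlp-7 by -0.48, nlp-61 by -0.53, nlp-80 by -0.78 and nlp-40 by -0.30 at an unadjusted p under 0.05. That fit set 2 NGM arrays against 2 of 13L, and 2.2% of all probe sets were lower in it. The other 5 were above 0.05, with unadjusted p from limma of 0.0732 for flp-22 (-0.27), 0.157 for nlp-3 (-0.23), 0.173 for nlp-11 (-0.38), 0.364 for nlp-51 (-0.17) and 0.133 for nlp-81 (-0.22). Without SL1 and SL69 only, nlp-3 had an unadjusted p of 0.0634 and nlp-40 of 0.0868, and flp-19, nlp-7, nlp-61 and nlp-80 were the members that stayed under 0.05.

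The second question was how flp genes compare with nlp genes. Of the flp genes 17 of 25 (68%) had a negative difference and of the nlp genes 39 of 51 (76.5%), where the share over all probe sets was 48.4%. The median difference was -0.10 for flp genes and -0.09 for nlp genes, and 0.01 over all probe sets. At an unadjusted p under 0.05, 8% of flp genes and 15.7% of nlp genes were lower. The family medians differed by -0.0022, and the sign of this value changed in several settings. Over members above the yeast controls, 28 of 34 nlp genes (82.4%) and 17 of 24 flp genes (70.8%) were negative, where all such probe sets gave 51.2%. In that set 20.6% of nlp genes and 8.33% of flp genes were lower at an unadjusted p under 0.05, beside 3.77% of probe sets. Whether the families differ in these shares was not tested. The flp genes reached further up, with 5 of them above 0.15 (flp-3, flp-11, flp-10, flp-27 and flp-13), whereas the highest nlp gene, nlp-39, differed by 0.13 and was not above the yeast controls. Standard errors were larger for flp genes (median 0.156) than for nlp genes (median 0.120).

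**Figure D2:**
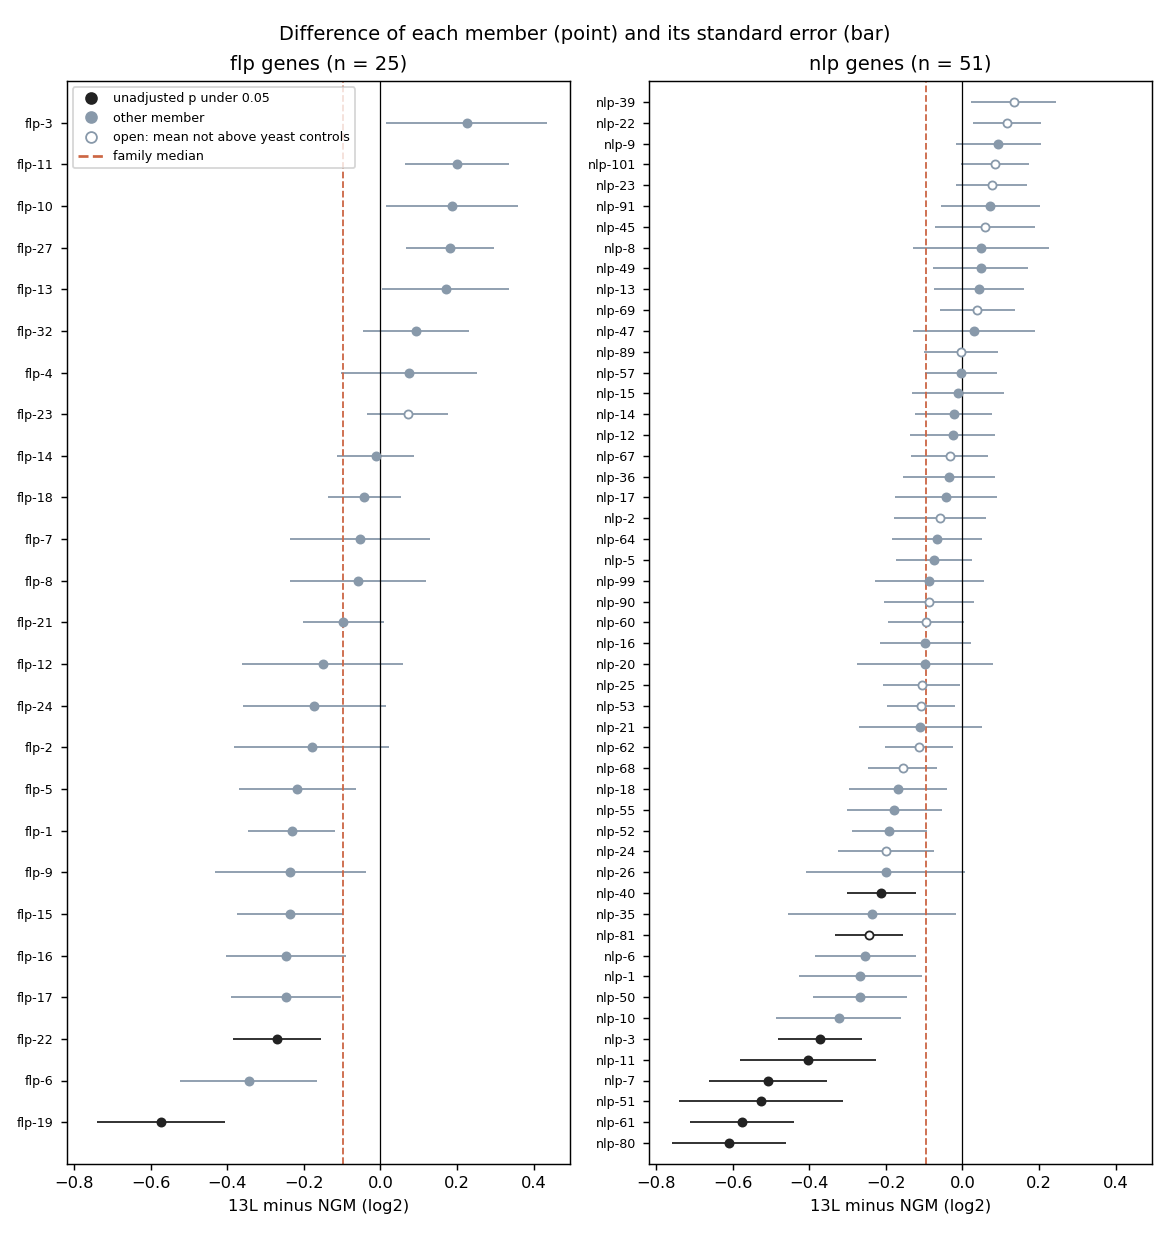
Difference between 13L and NGM on the log2 scale (x axis) for each flp gene (left) and nlp gene (right), with its standard error as a bar. Black points have an unadjusted p under 0.05, open points a mean not above the yeast controls, and the dashed lines mark the family medians of -0.10 and -0.09.

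The families were also followed array by array. Each member's log2 value was set against its own NGM mean, and the median over the family was taken on each array. For flp genes the medians were -0.01 (SL1), -0.17 (SL5), 0.15 (SL9) and 0.01 (SL69) on NGM and -0.07 (SL4), -0.14 (SL8) and 0.07 (SL12) in 13L. All 3 arrays of 13L lay inside the range of the NGM arrays. For nlp genes they were 0.05 (SL1), -0.09 (SL5), 0.05 (SL9) and 0.02 (SL69) on NGM and -0.09 (SL4), -0.19 (SL8) and -0.04 (SL12) in 13L. Here SL8 was the lowest array, SL4 lay about level with SL5, and SL12 lay above SL5. The flp median minus the nlp median ran from -0.08 (SL5) to 0.10 (SL9) on NGM and from 0.02 (SL4) to 0.12 (SL12) in 13L, which overlap. Their means were -0.01 on NGM and 0.06 in 13L, a sign opposite to that of the fitted medians.

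The members' values differed between single arrays, and the counts moved when an array was left out. SL8 was the lowest of the 7 arrays for 33 of the 76 members, 11 flp and 22 nlp genes, and SL5 was the lowest NGM array for 36. SL12 was the highest 13L array for 41 members, and for 17 of the 25 flp genes. All 3 arrays of 13L lay below the NGM mean for 23 nlp genes and 7 flp genes. The same counts over all probe sets were not made. Whether these array ranks are particular to the neuropeptide genes was therefore not tested. The count of flp genes lower at an unadjusted p under 0.05 was 1 without SL1, SL69 or SL8, 3 without SL9 or SL4 and 4 without SL12. For nlp genes it was 5 without SL8 or SL12, and between 6 and 9 without any other array. The share of all probe sets that were lower in these fits moved as well, from 1.76% without SL8, 1.95% without SL1 and 1.96% without SL12 to 2.24% without SL69, 2.65% without SL4, 3.09% without SL5 and 3.12% without SL9. Without SL8 the medians were -0.05 for flp genes and -0.05 for nlp genes, and without SL12 they were -0.22 and -0.12. Without SL5 the flp median was -0.16, and without SL1 -0.05. Without SL9 the nlp median was -0.05. Without SL1, SL4 and SL69 they were -0.05 and -0.08.

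**Figure D3:**
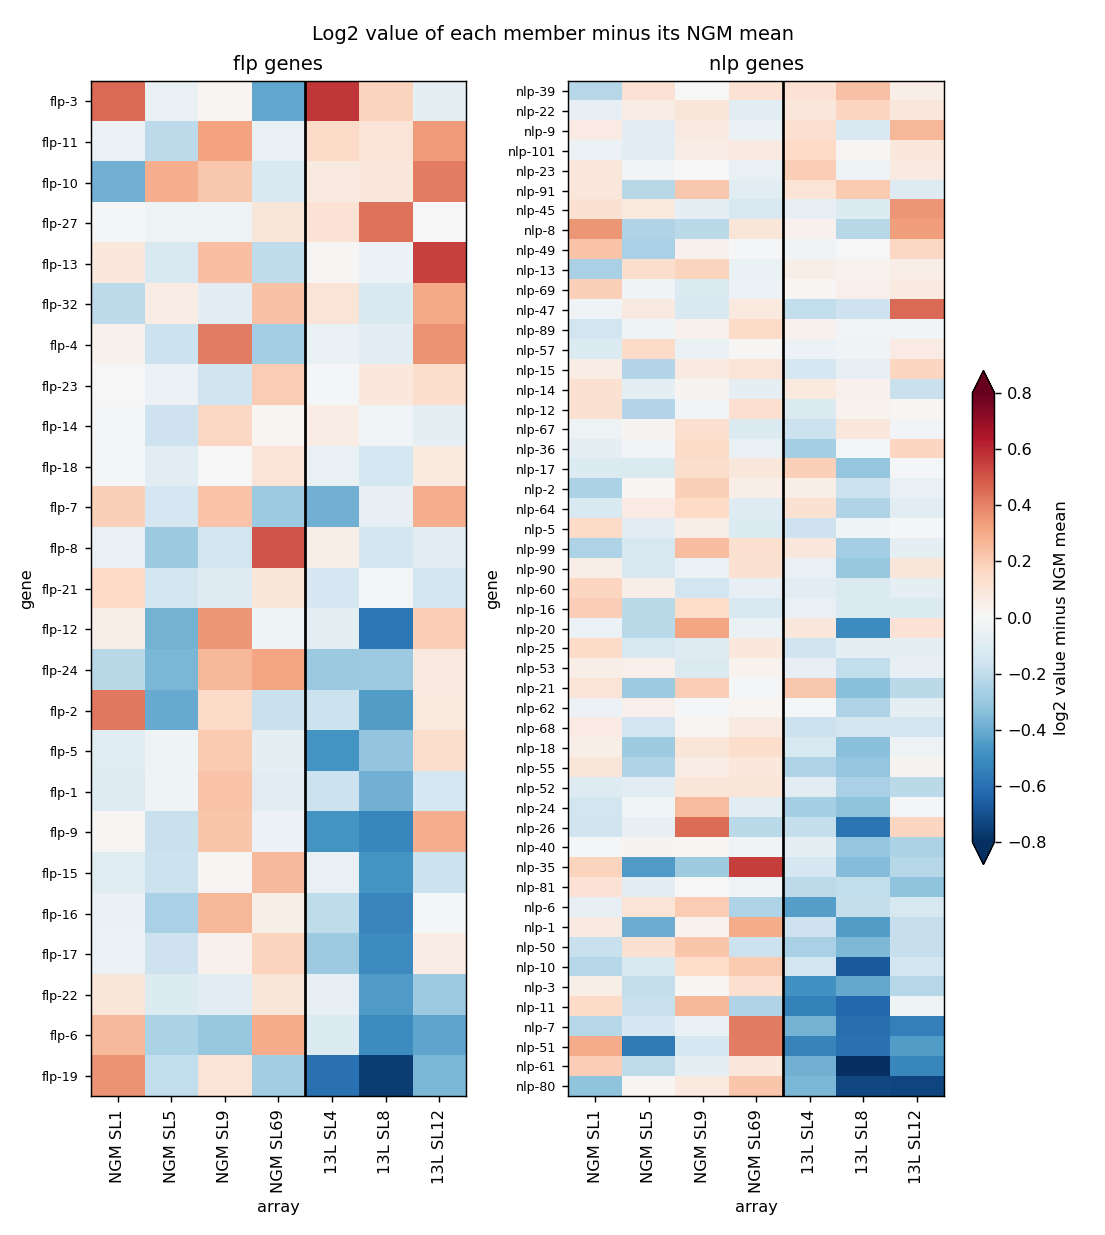
Log2 value of each member minus its NGM mean (colour scale, clipped at 0.8) on the 4 NGM and 3 13L arrays (columns), with genes (rows) ordered by difference. The SL8 column is the bluest, lowest of the 7 arrays for 33 members, and SL12 is the palest or reddest 13L column for 41. These counts were not made over all probe sets.

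Among flp genes with known roles, differences of either sign were measured, and with all 7 arrays none of those described next had an unadjusted p under 0.05 from limma. Peptides of flp-10 and flp-17 inhibit egg laying through the receptor EGL-6. Their differences were 0.19 for flp-10 and -0.25 for flp-17, with 95% intervals of -0.20 to 0.58 and -0.57 to 0.08, which overlap. Without SL1 and SL69 the difference of flp-10 was -0.06. The sleep peptide genes flp-11, of the neuron RIS, and flp-13, of the neuron ALA, had differences of 0.20 and 0.17. Without SL12 the difference of flp-13 was -0.02. For flp-11 the log2 value was 1.38 ± 0.23 on NGM (SD, n = 4) against 1.58 ± 0.13 under 13L (SD, n = 3), and the unadjusted p from limma was 0.0224 without SL9, against 0.172 with all arrays. In the fit without SL9, 619 of 22548 probe sets were higher at an unadjusted p under 0.05. With any other single array left out, no flp gene was higher at that level. The arousal gene flp-2 had -0.18, and its other probe set -0.18. In the locus that holds flp-3 next to flp-2, flp-3 had 0.23, with SL4 and SL1 as its highest arrays.

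Peptides of flp-18 and flp-21 act on the foraging receptor NPR-1. The log2 value of flp-18 was 3.44 ± 0.08 on NGM (SD, n = 4) against 3.40 ± 0.11 under 13L (SD, n = 3). It differed by -0.04, with a 95% interval of -0.26 to 0.17. For flp-21 the difference was -0.10 (-0.34 to 0.14). The gene flp-7, whose peptide signals fat loss to the intestine, had -0.05 (-0.47 to 0.36), and flp-14 had -0.01 (-0.24 to 0.22). These intervals include 0 and do not show that the levels were equal. Lower in the order were flp-6, which acts in thermosensory neurons, with -0.34 (unadjusted p = 0.0877 from limma), and flp-16 with -0.25. For flp-6 the unadjusted p from limma was 0.0337 without SL9 and 0.0489 without SL4. For flp-17 it was 0.0146 without SL12, against 0.121 with all arrays. Of the fits with 1 array left out, only those under 0.05 are given here for these genes. Of all probe sets, 3.12% were lower at that level without SL9, 2.65% without SL4 and 1.96% without SL12.

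Among nlp genes with known roles, nlp-12 encodes a cholecystokinin-like peptide of the stretch-sensing neuron DVA. It averaged 2.15 ± 0.17 on NGM (SD, n = 4) against 2.12 ± 0.08 under 13L (SD, n = 3) and differed by -0.03, with a 95% interval of -0.28 to 0.23. The orcokinin-like genes nlp-14 and nlp-15 differed by -0.02 and -0.01, and nlp-8, a sleep peptide gene of ALA, by 0.05. The sleep peptide gene nlp-22 differed by 0.12 and the opioid-like gene nlp-24 by -0.20, and neither was above the yeast controls. Values were -0.17 for nlp-18, -0.10 for nlp-20 and -0.11 for nlp-21. For nlp-18 the unadjusted p from limma was 0.0450 without SL5, where 3.09% of all probe sets were lower at a p under 0.05, against 0.221 with all arrays.

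Of the 76 members, 9 had more than 1 probe set, with 11 further probe sets in all. On 10 of these the difference was negative, and every unadjusted p from limma was over 0.05. The sign differed between probe sets for nlp-9, with 0.09 on the brighter and -0.10 on the dimmer one, and for nlp-16, with -0.10 and 0.0010. For flp-15, -0.24 on the probe set used, a second one also gave -0.24, with all 13L arrays below the NGM arrays, and the last, not above the yeast controls, -0.03. Among other members, nlp-61, nlp-51, nlp-50, nlp-36 and flp-21 had only a probe set of the _x_at type. An _s_at one stood alone for nlp-40, flp-6, flp-9, flp-11, flp-12, flp-18, nlp-12, nlp-14, nlp-15, nlp-20, nlp-21 and nlp-68. All probe sets of flp-15 were of these types. Whether these probe sets also read other transcripts was not tested.

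Other steps of peptide signalling were read from lists of genes. Of 27 measured genes for precursor processing and dense core vesicles, 19 (70.4%) had a negative difference, beside 48.4% of all probe sets. The median difference of the list was -0.17. At an unadjusted p under 0.05 (2.57% lower over all probe sets), 5 were lower and none was higher. These were egl-21, the carboxypeptidase that trims the peptides, with -0.25, the convertase kpc-1 with -0.37, unc-31 (release of dense core vesicles, not above the yeast controls) with -0.35, the kinase pkc-1 with -0.34, and nep-1, a neprilysin that degrades peptides, with -0.59. The convertase egl-3, the main one for neuropeptides, had -0.20 (unadjusted p = 0.197 from limma). On each array the median of the list relative to NGM lay between -0.03 and 0.05 on NGM and between -0.20 and -0.07 in 13L, so the groups were separate. Of 24 insulin-like peptide genes, 10 (41.7%) had a negative difference, with a median of 0.03. None of them was lower or higher at an unadjusted p under 0.05.

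Of 98 measured neuropeptide receptor genes, 80 were not above the yeast controls. The median difference was 0.01, with 47 negative, and 1 (1.02%) was lower and 6 were higher at an unadjusted p under 0.05, where all probe sets gave 48.4% negative, 2.57% lower and 2.54% higher. Higher were fshr-1 (0.49), ntr-2 (0.39), npr-10 (0.30), tkr-1 (0.28), dmsr-10 (0.28) and npr-30 (0.24), of which npr-10, dmsr-10 and npr-30 were not above the yeast controls, and npr-36 was lower (-0.30). The receptor egl-6, for flp-10 and flp-17, averaged 2.10 ± 0.09 on NGM (SD, n = 4) against 2.19 ± 0.05 under 13L (SD, n = 3). It differed by 0.10 (unadjusted p = 0.293 from limma). Of the other receptors paired with named ligands, npr-1, for flp-18 and flp-21, differed by -0.08, ckr-1 and ckr-2, both for nlp-12, by 0.10 and -0.04, and aex-2, for nlp-40, by 0.08. None of these was above the yeast controls. For gnrr-1, paired with nlp-47 and not above the controls, the 13L arrays were all higher than the NGM arrays, with a difference of 0.17 (unadjusted p = 0.102 from limma).

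Markers of other tissues also differed between arrays. For the counts below, 48.4% of all probe sets had a negative difference. Of 26 neuron markers, which hold synaptic vesicle and release genes but none of the processing list, 16 had a negative difference, with a median of -0.05, and their medians in 13L (-0.08 to -0.04) lay inside the NGM range (-0.13 to 0.18). Their summed linear values were 246 to 287 on NGM and 240 to 259 in 13L. These sums are set mostly by the brightest markers, snb-1 (mean log2 value 6.78), ehs-1 (5.34) and unc-11 (4.82), and say little about the dimmer ones. Of 15 pharynx markers, 12 had a negative difference, with a median of -0.19, and SL5 (-0.26) and SL8 (-0.30) were the lowest arrays, which were also lowest for the flp genes. Their summed linear values were 104.3 to 189 on NGM and 86.2 to 156 in 13L. Of 15 hypodermis markers 9 had a negative difference (median -0.07), with sums of 2995 to 3309 on NGM and 2804 to 3361 in 13L. The 7 measured epidermal genes among nlp-27 to nlp-34 had a median of -0.29, lower than either neuropeptide family. Of these 7, nlp-27 to nlp-31 each had only a probe set of the _x_at type. Whether such probe sets also read other transcripts was not tested. At an unadjusted p under 0.05, 3 of the 7 (42.9%), nlp-29, nlp-30 and nlp-31, and 2 of the 26 neuron markers (7.69%) were lower. The share was 13.2% of the members and 2.57% of all probe sets. No pharynx, hypodermis or sperm marker was lower at that level. Sperm markers were positive in 16 of 21 cases (median 0.22). Negative differences were also found in 13 of 17 early embryo markers (median -0.05), 12 of 17 intestine markers (-0.03) and 8 of 14 body muscle markers (-0.03). Of these lists, 1 early embryo marker (5.88%) was lower at that level. Oocyte markers were positive in 13 of 20 cases (median 0.09). At an unadjusted p under 0.05, 2 of them were higher, beside 2.54% of all probe sets. The part of these tissues in the differences of the neuropeptide genes was not tested.

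**Figure D4:**
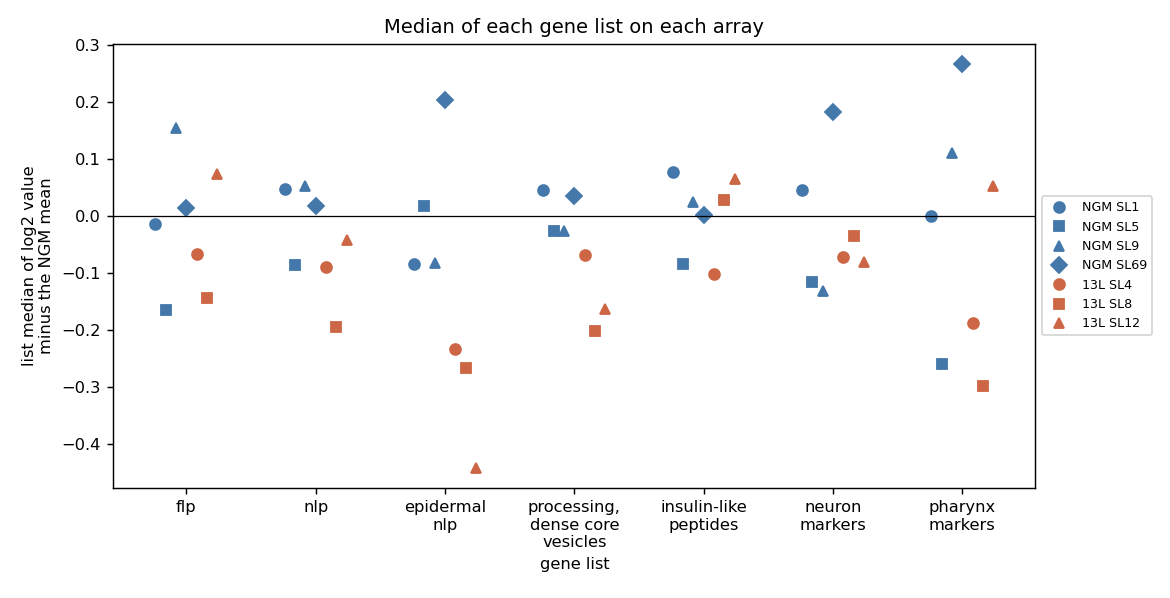
Median over each gene list (x axis) of the log2 value minus the NGM mean (y axis), on the 4 NGM arrays (blue) and the 3 arrays of 13L (orange). The groups are separate for the processing list and the epidermal nlp genes, and overlap for the flp, nlp, insulin-like, neuron and pharynx lists.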

How the data were processed

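Total RNA of whole young adult N2 worms, 4 samples on NGM and 3 on NGM with 13L, was hybridised, 1 sample per array, to the Affymetrix C. elegans Genome Array. Background correction was by RMA and normalization between arrays by quantiles, as the authors state. They deposited log2 values, 1 per probe set. RMA and limma appear in the submitters' processing notes. For versions and the scale's offset the entry is: not given in the sources used here. Quantile normalization makes the arrays alike, so only changes relative to other genes are measured. The labels do not say how the samples were batched. Arrays give no read depth, and their number limits the precision.

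Of 22625 probe sets, 77 were Affymetrix controls and 22548 were tested for 13L minus NGM with limma's moderated two-sided test without a trend (version 3.58.1, R 4.3.3) and Benjamini-Hochberg adjustment at 0.05. Genes were named from the platform annotation, where 20766 probe sets name 1 gene, 887 several and 895 none. All 76 member symbols matched the current symbol of the WBcel235 gene table. The 2 probe sets that share nlp-4 or nlp-76 with another gene were not used. The step was tested on simulated data with the spread of the real probe sets, where 13 of 50 probe sets changed by 0.5 and 42 of 50 changed by 1 were recovered among 22548. The same simulation held 50 probe sets changed by 2 and 50 changed by 3, of which 48 and 50 were recovered. It also called 4 unchanged probe sets. Large changes ease the adjusted threshold, so recovery of small changes can be lower where few probe sets change.

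Genes were named with values by rule: all members at an unadjusted p under 0.05, the 5 lowest and 3 highest of each family, a list of members with known roles, and those whose probe sets differ in sign. The genes nlp-50, egl-3 and the receptors set beside their ligands, among others, were chosen after their values were seen. The members and lists were chosen with earlier results of these data known, and no test over the members was made. Alternatives were each array left out, runs of title numbers as blocks, other limma settings, other normalizations, filters and probe set choices. Fits without SL1 and SL69, without SL1, SL4 and SL69, and with members above the yeast controls were added after the data were seen. No sequences are shown, as none were used here.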

Additional observations from a re-analysis of the deposited data

Results flagged for a closer look

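In 3 nlp genes, 1 NGM array lay far from the other 3 by Dixon's criterion for 4 values. For nlp-15, SL5 had a log2 value of 0.91, with the nearest NGM array at 1.21. For nlp-53, SL9 had 0.36, with the nearest at 0.50, and the gene was not above the yeast controls. For nlp-55, SL5 had 1.09, with the nearest at 1.39. In each case the array was the lowest of its group. Of 78 groups of NGM values examined, those of the 76 members and the 2 family medians, 3 were past the criterion, and chance passes about 1 in 20 groups. None of these genes had an unadjusted p under 0.05 from limma.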

How the results depend on the processing

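No probe set passed the adjusted test of limma under any setting, and the lowest adjusted p (0.180) came with runs of title numbers as blocks, where 4.06% of all probe sets were lower at an unadjusted p under 0.05. What the title numbers mark is not stated, and SL69 was alone in its block. The flp median stayed negative in every setting, between -0.22 and -0.05 with 1 array left out, and so did the nlp median, between -0.13 and -0.05. The flp median minus the nlp median, -0.0022 as reported, became 0.0341 with the blocks, 0.0346 without probe sets of the _s_at and _x_at types, 0.0103 without SL1 and SL69 and 0.0356 without SL1, SL4 and SL69. With 1 array left out it ran from -0.104 to 0.0434. The flp genes lower at an unadjusted p under 0.05, 2 of 25 as reported, were 4 with the blocks, which added flp-1 and flp-6. They were 1 of 20 in the brighter 11274 probe sets. With the trend and robust settings, or without SL1, SL4 and SL69, they were 1 of 25. With 1 array left out they were 1 to 4. The nlp genes at that level, 8 of 51 as reported, were 5 of 30 in the brighter 11274. They were 5 of 40 without _s_at and _x_at probe sets and 5 of 51 without SL1 and SL69. With 1 array left out they were 5 to 9. Of all probe sets, 2.57% were lower as reported, 2.9% in the brighter 11274 and 2.55% without _s_at and _x_at probe sets. The share was 2.38% with the trend and robust settings, 2.19% without SL1 and SL69 and 2.2% without SL1, SL4 and SL69. Negative differences were found in 11 of 18 flp genes without _s_at and _x_at probe sets and in 24 of 30 nlp genes of the brighter 11274, where fewer genes were tested. Of the 10 members at an unadjusted p under 0.05, nlp-40, nlp-51 and nlp-61 were not tested without _s_at and _x_at probe sets, as their only probe sets are of these types. The cause of the other changes was not tested. Of 576 values of named members under other settings, 482 kept their direction and side of the threshold, 41 lost an unadjusted p under 0.05, 9 gained it and 44, of 13 members, changed sign, none of these among the members with an unadjusted p under 0.05. With 1 array left out, such differences ran from -0.224 to 0.112 for flp-7, -0.0179 to 0.279 for flp-13, -0.0671 to 0.0433 for flp-14, -0.103 to 0.00944 for flp-18, -0.0922 to 0.184 for nlp-8, -0.102 to 0.02004 for nlp-12, -0.0728 to 0.0538 for nlp-14, -0.102 to 0.0526 for nlp-15, -0.204 to 0.103 for nlp-20 and -0.273 to 8.56e-05 for nlp-21. With the blocks, the sign changed for nlp-12 (0.0197) and nlp-15 (0.0225). With array weights, the sign changed for flp-14 (0.0131), nlp-12 (0.00944) and nlp-14 (0.00655). With cyclic loess, the sign changed for flp-14 (0.000106) and nlp-12 (0.00211). Without _s_at and _x_at probe sets, the sign changed for nlp-9 (-0.0993). With probe sets averaged per gene, the sign changed for nlp-9 (-0.00297). Without SL1 and SL69, the sign changed for flp-10 (-0.0648), flp-18 (0.00203), flp-21 (0.0296), nlp-12 (0.102), nlp-14 (0.00105) and nlp-15 (0.0701). Without SL1, SL4 and SL69, the sign changed for flp-7 (0.065), flp-10 (-0.00605), flp-18 (0.0121), flp-21 (0.0492), nlp-12 (0.147) and nlp-15 (0.134). Precision is limited by the 7 arrays.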

Other observations

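Neuropeptide genes without the flp- or nlp- prefix gave small differences. The pigment dispersing factor genes pdf-1 and pdf-2 differed by -0.07 and 0.16, snet-1, which acts in olfactory plasticity, by -0.12, and lury-1 by -0.17, and limma gave each an unadjusted p over 0.05. Of the insulin-like genes, ins-7 was the only one with every 13L array below every NGM array, with a difference of -0.23 (unadjusted p = 0.0671 from limma), and ins-3 the only one with every 13L array above, with 0.17 (unadjusted p = 0.123 from limma). Over all probe sets, 2.77% and 3.31% were separate in these directions.

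Some members are neighbours in the gene table. The pair nlp-9 and nlp-13 differed by 0.09 and 0.04. The run of nlp-45, nlp-22, nlp-23 and nlp-2, none above the yeast controls, had 0.06, 0.12, 0.08 and -0.06. The pair nlp-90 and nlp-91 had -0.09 and 0.07, and flp-3 and flp-2 had 0.23 and -0.18.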
